A study of Mus musculus with 18 samples.

Results

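YAP, its paralogue TAZ, the TEAD transcription factors and 4 target genes of the YAP/TEAD complex were followed in RNA from immortalized mouse myoblasts at 3 stages of the path from growth to differentiation. The 10 genes were chosen by name, as the coactivators Yap1 and Wwtr1 (TAZ), the DNA-binding partners Tead1, Tead2, Tead3 and Tead4, and the targets Cyr61 (Ccn1), Ctgf (Ccn2), Ankrd1 and Amotl2. All 10 of 10 were found by their Ensembl identifiers among the 19153 genes listed in every library, and all 10 were among the 17672 genes tested. The cells came from a p53 knockout mouse, so that p53 was absent from every group. Wildtype (WT) control myoblasts had received the Cas9 plasmid pX458 without a guide, and LAP2α knockout (KO) myoblasts the same plasmid with a guide against LAP2α, the nucleoplasmic isoform encoded by Tmpo. Both were pools sorted by EGFP and not clones. On collagen-coated plates, each genotype was harvested proliferating below confluence in 20% serum (Prol), on reaching confluence in 20% serum (D0), and after 48 hours in 5% serum (D2), with 3 libraries in each of the 6 groups and 18 in all. D0 and Prol cells therefore shared the medium and differed in density and in time since plating, whereas D2 and D0 cells differed in serum and time.

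YAP and TAZ are transcriptional coactivators without a DNA-binding domain of their own. In crowded cells LATS, a Hippo kinase downstream of MST, phosphorylates them, which keeps them in the cytoplasm or leads to their degradation. In spread, sparse cells they enter the nucleus and bind TEAD factors. The TEAD factors bind the M-CAT motif, first described in promoters of muscle genes, and YAP is known to favour proliferation of myoblasts over their differentiation. YAP and TAZ are controlled largely at the protein level, so the mRNA of the targets and not that of Yap1 or Wwtr1 is the usual readout of their activity. The comparison of D0 with Prol asked whether these mRNAs differed with confluence, and that of D2 with D0 whether they differed with differentiation.

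The M-CAT core that TEAD factors bind was looked for in the RefSeq sequence upstream of the members, on the GRCm38.p6 build. Sequence was at hand for 7 of the 10 genes, in 10 windows of 250 bases that end at an annotated start of transcription, since Wwtr1 and Tead3 have more than 1 start. The letters GGAATG, or CATTCC on the other strand, were present in 8 of these 10 windows, or in those of 6 of the 7 genes, and in 12.6% of all 32817 mouse windows of the same length. The Wwtr1 windows overlap by 216 bases and hold the same core. The AP-1 motif TGANTCA was in 0 of the 10 and in 6.75% of all windows. The sequences with a core are shown for 3 of the targets, because the target mRNAs are the readout of the factors, and for Yap1 and Wwtr1, whose own upstream windows also hold it; the core is in capitals and all are written 5′ to 3′ on the strand of the gene.
Cyr61 upstream window, chr3:145649986-145650235, minus strand: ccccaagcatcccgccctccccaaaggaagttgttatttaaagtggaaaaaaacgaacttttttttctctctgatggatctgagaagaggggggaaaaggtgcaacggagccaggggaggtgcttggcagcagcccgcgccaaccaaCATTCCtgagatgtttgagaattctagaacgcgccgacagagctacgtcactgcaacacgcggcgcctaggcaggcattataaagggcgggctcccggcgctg
Ankrd1 site, chr19:36120037-36120066, minus strand: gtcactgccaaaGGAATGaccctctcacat
Ankrd1 site, chr19:36119950-36119979, minus strand: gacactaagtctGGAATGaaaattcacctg
Amotl2 site, chr9:102717727-102717756, plus strand: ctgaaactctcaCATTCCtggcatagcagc
Yap1 upstream window, chr9:8004597-8004846, minus strand: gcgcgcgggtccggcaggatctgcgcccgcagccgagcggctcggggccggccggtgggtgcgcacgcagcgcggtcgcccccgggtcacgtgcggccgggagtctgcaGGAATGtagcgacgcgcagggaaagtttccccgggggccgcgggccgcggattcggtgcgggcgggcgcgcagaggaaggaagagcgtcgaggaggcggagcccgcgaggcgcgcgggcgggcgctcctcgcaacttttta
Wwtr1 upstream window, chr3:57575911-57576160, minus strand: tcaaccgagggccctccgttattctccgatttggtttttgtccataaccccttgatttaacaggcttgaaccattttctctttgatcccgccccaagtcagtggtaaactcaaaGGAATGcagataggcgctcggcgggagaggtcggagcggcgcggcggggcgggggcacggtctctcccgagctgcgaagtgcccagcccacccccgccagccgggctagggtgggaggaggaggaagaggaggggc
In the Cyr61 window the core begins 103 bases before the start of transcription. The cores of Ankrd1 begin 210 and 123 bases before its start, and that of Amotl2 begins 65 bases before. Those of Yap1 and Wwtr1 begin 141 and 136 bases before the start. The windows shown for Cyr61, Yap1 and Wwtr1 lay outside annotated exons of their genes (GENCODE M21). By contrast, annotated exons covered all 250 bases of the Ankrd1 window and 136 of the 250 bases of the Amotl2 window. The Ankrd1 sites, although upstream of the RefSeq start, thus lay in an exon, and for the Amotl2 site this was not determined. A match is a description of the letters and not evidence that the site was bound in these cells.

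On GRCm38 the coactivator genes lay at separate loci, Yap1 (ENSMUSG00000053110) at chr9:7931999-8004596 and Wwtr1 (ENSMUSG00000027803) at chr3:57455649-57575910. The TEAD genes were Tead1 (ENSMUSG00000055320) at chr7:112679318-112906807, Tead2 (ENSMUSG00000030796) at chr7:45215753-45233644, Tead3 (ENSMUSG00000002249) at chr17:28331671-28350817 and Tead4 (ENSMUSG00000030353) at chr6:128224288-128300823. The targets were Cyr61 (ENSMUSG00000028195) at chr3:145646976-145649981, Ctgf (ENSMUSG00000019997) at chr10:24595442-24598683, Ankrd1 (ENSMUSG00000024803) at chr19:36111961-36120099 and Amotl2 (ENSMUSG00000032531) at chr9:102716672-102733418. Counts were taken over all exons of a gene, untranslated regions included.

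Depth was 26437823 to 41619016 expected counts per library (median 32939620), and a member had at least 228.5 expected counts in every library, so counting error was small. Levels are given as CPM, expected counts scaled to a common library total. Tmpo, whose count joins all isoforms and so does not check the loss of LAP2α, was lower in KO than in WT in 9 of 9 pairs by replicate number, with log2 fold changes of -0.28 to -0.21 and adjusted p = 1 (limma) in all 3 states. Of the 10 muscle markers, 9 were listed and Pax7 was not. In the 6 Prol libraries, Myf5, a determination factor of myoblasts, was at 20.5 to 27.4 CPM, while Myod1 was at 0.736 to 5.88 CPM. At D2 all 3 libraries of each genotype were far higher in the summed muscle markers, with 1988 to 3879 CPM in WT and 1227 to 1488 CPM in KO, against 36.6 to 68.7 and 38.6 to 43.6 CPM at D0. From D0 to D2, 8 of the 9 were called higher in each genotype and 1 lower in WT (limma). Of all tested genes, 26% were called in WT and 28.3% in KO. Myf5 went down, from a mean of 29.4 to 17.6 CPM in WT and from 25.9 to 20.0 CPM in KO. Of the 6 fibroblast markers, Col1a1 was at 403 to 2163 CPM and Pdgfra at 16.6 to 46.4 CPM in Prol libraries. The other markers, Thy1, Dcn, Lum and Pi16, were at 0.015 to 0.686 CPM there. Among the D2 libraries, replicate 1 stood apart from replicates 2 and 3 in both genotypes. Across 10743 genes, the SD of its log2 deviation within its group was 0.93 in WT and 0.81 in KO, and between 0.43 and 0.60 for replicates 2 and 3 at D2. Replicate 1 of WT D0 was at 0.86, above replicate 1 of KO D2, and replicates 1 and 2 of KO D0 were at 0.70 and 0.73. The leave-one-out ranges of the D0 libraries are therefore given where a call turned on them. The steps of the 10 genes from D0 to D2 are also given without replicate 1 at D2, with all D0 libraries kept. The labels do not say whether replicates were separate cultures, so p-values measure the spread between these libraries, which may be technical.

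Per kilobase of annotated exon, 3 of the targets were the most abundant of the 10 mRNAs in proliferating cells. In WT Prol, Cyr61 was at 270.3 ± 95.9 CPM per kb (SD, n = 3), Ankrd1 at 91.5 ± 23.6 and Amotl2 at 55.4 ± 10.1. Ctgf at 36.6 ± 21.97, Tead2 at 31.2 ± 2.04 and Wwtr1 at 27.4 ± 2.92 CPM per kb followed and did not differ beyond their spread. Yap1 and Tead1 were alike at 14.9 ± 1.21 and 14.1 ± 3.34 CPM per kb. Tead4 at 4.97 ± 1.56 and Tead3 at 1.52 ± 0.12 CPM per kb were the lowest. Tead1 and Tead2 thus made up most TEAD mRNA before differentiation. Taking the longest transcript in place of all annotated exons raised Tead3 to 2.96 CPM per kb and Tead2 to 43.9, and left Tead3 and Tead4 lowest. With that length Yap1 was at 26.1 ± 2.12 CPM per kb, level with Wwtr1 at 27.9 ± 2.97 and above Tead1 at 19.3 ± 4.55, so the order of these genes depends on the length used.

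Confluence was accompanied by no called change in any of the 10 genes. Over both genotypes, 0 of 10 members had an adjusted p under 0.05 in D0 against Prol (limma), where 0% of all tested genes did, and 0 of 10 had an unadjusted p under 0.05, where 3.1% of all genes did. The weights of voom also gave 0 of 10. The log2 fold changes ran from -0.49 for Ankrd1 to 0.18 for Tead3, with a median over the members of -0.20 beside -0.03 over all genes. The intervals were wide, and a 2-fold change of Cyr61 or Ctgf lay inside them, so the absence of a call does not show that these mRNAs were equal.

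Ankrd1, which encodes an ankyrin repeat protein of muscle cells, came nearest to a difference. It was at 294, 186 and 312 CPM in WT Prol and at 159, 176 and 230.0 CPM in WT D0 (replicates 1, 2 and 3). KO cells had it at 299, 212 and 273 CPM in Prol and at 199, 149 and 204 CPM in D0. The KO libraries of D0 lay below all KO libraries of Prol, a separation seen in 4.35% of all genes in that comparison, while in WT the groups overlapped (5.92% of all genes did not). D0 was below Prol in 6 of 6 libraries paired by number, and the pooled log2 fold change was -0.49 (SE 0.25, 95% interval -1.02 to 0.05, adjusted p = 0.999). In the fit with a replicate block, it passed the unadjusted threshold but not the adjusted one (adjusted p = 0.366).

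Cyr61 and Ctgf, secreted matricellular proteins and the most used readouts of YAP, had no common direction. Cyr61 was at 727, 342 and 569 CPM in WT Prol and at 433, 354 and 607 CPM in WT D0. KO libraries held it at 706, 475 and 586 CPM in Prol and at 477, 399.95 and 631 CPM in D0. Replicate 1 was lower at D0 in both genotypes, at 0.595 and 0.676 times its Prol level, and replicate 3 was 1.07 and 1.08 times its Prol level. The pooled log2 fold change of Cyr61 was -0.22 (SE 0.45, 95% interval -1.17 to 0.73). Ctgf was at 175, 52.9 and 86.4 CPM in WT Prol and at 58.7, 75.0 and 188 CPM in WT D0. In KO it was at 174, 109 and 98.2 CPM in Prol and at 97.5, 103 and 187 CPM in D0. Its replicates moved in opposite directions in both genotypes, with D0 over Prol ratios of 0.336 and 0.56 in replicate 1 and of 2.18 and 1.91 in replicate 3. The pooled log2 fold change of Ctgf was 0.01 (SE 0.70, 95% interval -1.47 to 1.496), and its sign turned when any of 6 libraries was left out.

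Amotl2, a target that also binds YAP and restrains it, was at 417, 292 and 335 CPM in WT Prol and at 408, 183 and 287 CPM in WT D0. KO cells had it at 442, 328 and 330.1 CPM in Prol and at 430.1, 202 and 316 CPM in D0. The D0 library was lower in 6 of 6 pairs by number, by little in replicate 1 and most in replicate 2. The groups overlapped, and the pooled log2 fold change was -0.29 (SE 0.33, 95% interval -0.99 to 0.42).

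**Figure D1:**
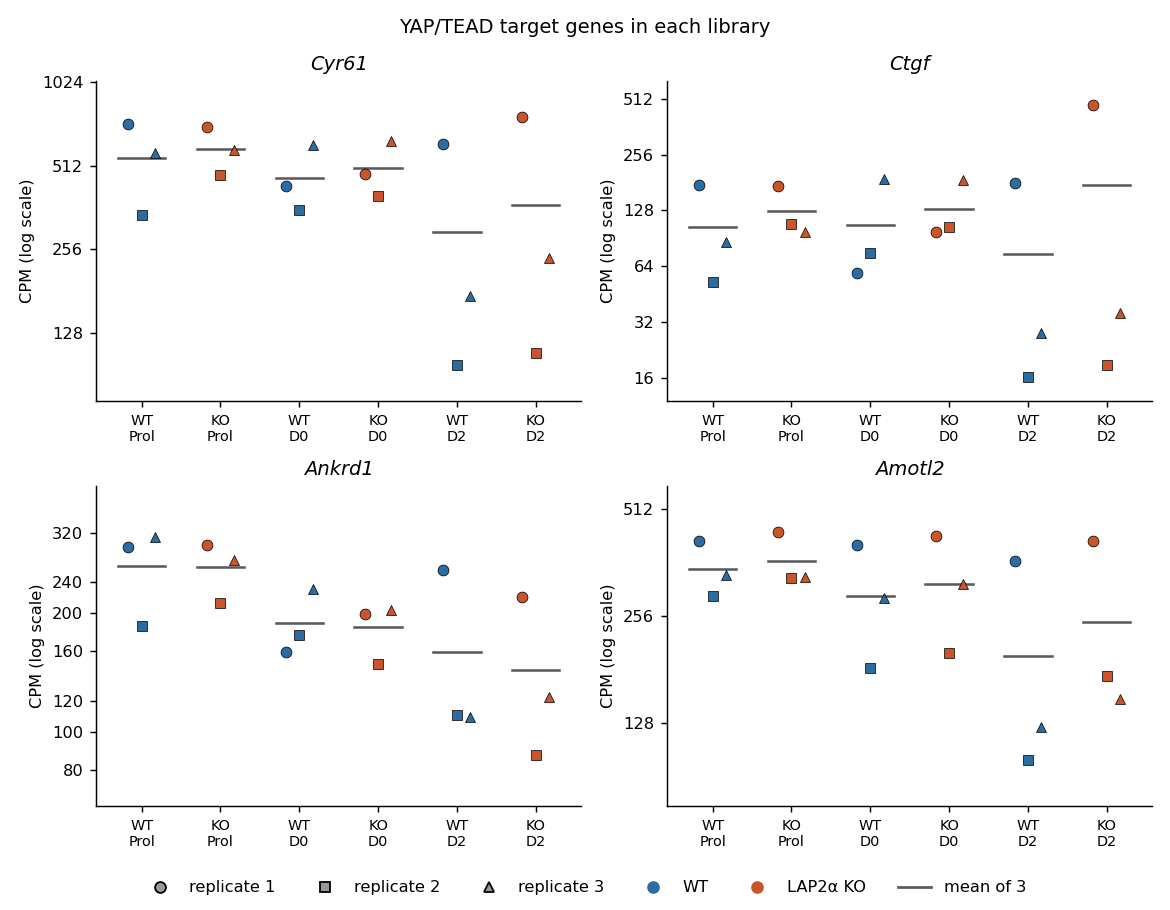
Level of the 4 target genes in each of the 18 libraries, in CPM on a log scale, for WT (blue) and LAP2α KO (orange) cells, with the replicate number as symbol and the mean of 3 libraries as bar. Prol and D0 overlap for all 4 genes except Ankrd1 in KO cells, and at D2 replicate 1 lies above replicates 2 and 3 for each gene in both genotypes, for Ctgf at 179 and 473 CPM against 16.1 to 35.6 CPM.

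The coactivators had no called difference between Prol and D0. Yap1 was at 143, 125 and 146 CPM in WT Prol and at 152, 94.7 and 139.7 CPM in WT D0, and at 151.4, 127 and 154 CPM in KO Prol and 163, 94.4 and 146 CPM in KO D0. Replicate 2 was thus the lowest library of each group, at 0.758 and 0.744 times its Prol level, and the other replicates were between 0.95 and 1.08 times theirs. Wwtr1 was at 140.0, 115 and 138 CPM in WT Prol and at 145, 113 and 144 CPM in WT D0, and at 158, 119 and 148 CPM in KO Prol and 163, 99.3 and 163 CPM in KO D0. The pooled log2 fold changes were -0.13 (SE 0.19) for Yap1 and 0.00 (SE 0.22) for Wwtr1. For Yap1 the 95% interval was -0.54 to 0.28 and for Wwtr1 it was -0.47 to 0.47, so that a 1.5-fold difference at confluence lay outside both.

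The TEAD genes also had no called difference with confluence. The pooled log2 fold changes were -0.20 (SE 0.32) for Tead1, -0.20 (SE 0.12) for Tead2, 0.18 (SE 0.17) for Tead3 and -0.21 (SE 0.25) for Tead4. Tead1 was at 148 to 238 CPM in WT Prol and at 100.6 to 254 CPM in WT D0, and at 167 to 245 CPM in KO Prol and 130.4 to 223 CPM in KO D0. All groups overlapped.

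Some TEAD genes were among the many genes called with differentiation. From D0 to D2, Tead3 and Tead4 rose in both genotypes and Tead2 fell in KO cells, while Tead1 and Yap1 had no called change. In WT, 2 of 10 members were called (both higher), where 26% of all tested genes were called. In KO, 3 of 10 were called (2 higher and 1 lower), where 28.3% of all genes were. With the replicate block 4 of 10 were called in KO, where 46% of all genes were. The shares of members were near or not far above those of all genes, and the median log2 fold change of the members was -0.24 in WT and -0.26 in KO, beside 0.00 and 0.06 over all genes.

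Tead4, a TEAD factor known from skeletal muscle, made the largest step of the family in WT cells. It was at 13.03, 9.57 and 21.9 CPM in WT D0 and at 77.7, 43.5 and 41.5 CPM in WT D2. KO libraries held it at 14.5, 9.64 and 22.1 CPM in D0 and at 33.5, 31.2 and 24.6 CPM in D2. All D2 libraries lay above all D0 libraries in both genotypes, as was the case in 1 direction or the other for 33.2% of all genes in WT and 36.7% in KO. The log2 fold change was 1.90 in WT (SE 0.36, adjusted p = 0.00103), or 3.72-fold, and 1.02 in KO (SE 0.36, adjusted p = 0.044), or 2.03-fold. Without replicate 1 at D2 it was 1.61 in WT (adjusted p = 0.00692) and 0.93 in KO (adjusted p = 0.0808). The KO call was also lost when replicate 1 or 2 of KO D0, or any single library of KO D2, was left out, with values of 0.72 to 1.15.

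Tead3 stood at a lower level and rose in both genotypes. It was at 14.8, 10.9 and 8.96 CPM in WT D0 and at 31.7, 22.5 and 25.9 CPM in WT D2. In KO it was at 13.5, 12.9 and 7.88 CPM in D0 and at 29.1, 24.3 and 20.9 CPM in D2. The groups did not overlap, as was the case for 33.2% of all genes in WT and 36.7% in KO. Its log2 fold change was 1.23 in WT (SE 0.24, adjusted p = 0.00141) and 1.14 in KO (SE 0.24, adjusted p = 0.00224), and without replicate 1 at D2 it was 1.09 (adjusted p = 0.0065) and 1.02 (adjusted p = 0.00896). Tead3 and Tead4 shared 10 stretches of 50 bases, the length of the reads, which was 0.144% and 0.272% of those of their transcripts.

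Tead2, the other abundant TEAD mRNA beside Tead1, went the other way. It was at 139.7, 106 and 135 CPM in WT D0 and at 93.3, 93.6 and 95.1 CPM in WT D2. KO cells had it at 155, 98.4 and 144 CPM in D0 and at 83.0, 91.6 and 83.7 CPM in D2. All D2 libraries were below all D0 libraries in both genotypes, where 33.2% of all genes in WT and 36.7% in KO were separated in either direction. The log2 fold change was -0.59 in KO (SE 0.17, adjusted p = 0.0172) and -0.42 in WT (SE 0.17, adjusted p = 0.0863). The KO call was lost without replicate 1 or 3 of KO D0 or replicate 3 of KO D2, at -0.58 to -0.47. Tead2 was the only member in which replicate 1 at D2 was not above the others, with ratios of 0.989 and 0.946 to their mean. Its step without that library was -0.42 in WT (adjusted p = 0.13) and -0.57 in KO (adjusted p = 0.0406).

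Tead1 was at 254, 100.6 and 186 CPM in WT D0 and at 286, 98.9 and 128 CPM in WT D2, and at 223, 130.4 and 188 CPM in KO D0 and 340.3, 105 and 129 CPM in KO D2. Its log2 fold change was -0.13 in WT and -0.08 in KO (SE 0.46), and the sign depended on single libraries. It was at -0.58 and -0.59 without replicate 1 at D2. Per kilobase of exon, Tead2 was at 19.6 ± 0.20 CPM in WT D2 (SD, n = 3), Tead4 at 15.1 ± 5.65, Tead1 at 12.6 ± 7.41 and Tead3 at 3.98 ± 0.69. In WT D2, Tead1, Tead2 and Tead4 therefore did not differ beyond their spread by this length, whereas at D0 Tead4 was below both. With the longest transcript, Tead2 was at 27.7 ± 0.29 CPM per kb in WT D2, Tead4 at 17.6 ± 6.61 and Tead1 at 17.2 ± 10.09. The likeness of Tead2 to Tead4 at D2 thus depends on the length used. In KO D2, Tead2 was at 17.99 ± 1.00 CPM per kb, above Tead4 at 8.27 ± 1.28, and Tead1 was at 14.1 ± 9.52.

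**Figure D2:**
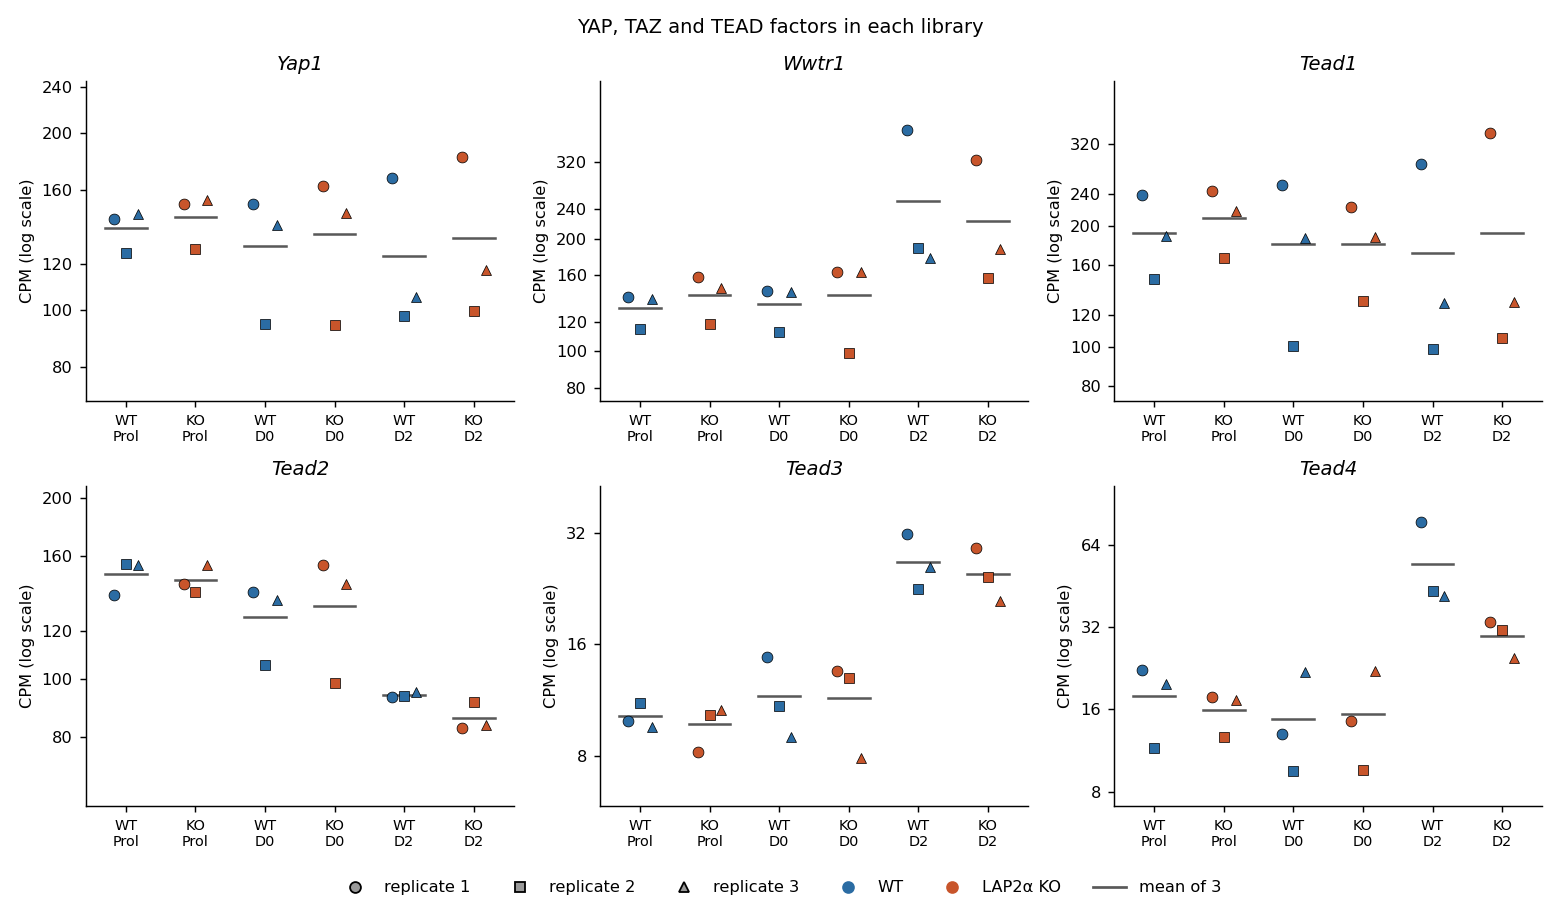
Level of Yap1, Wwtr1 and the 4 TEAD genes in each library, in CPM on a log scale, with WT in blue, LAP2α KO in orange, the replicate number as symbol and the mean of 3 libraries as bar. Tead3 and Tead4 lie higher and Tead2 lower at D2 than at D0 without overlap in either genotype, and Yap1 and Tead1 have their highest D2 value in replicate 1. Of all genes, 33.2% in WT and 36.7% in KO did not overlap between D0 and D2.

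Wwtr1 was higher at D2 in every replicate, and Yap1 was not. Wwtr1 was at 391, 189 and 178 CPM in WT D2, all above the WT D0 libraries (33.2% of all genes did not overlap there). In KO D2 it was at 324, 157 and 188 CPM, where 1 library lay below 2 of the KO D0 libraries. The log2 fold change was 0.82 in WT (SE 0.31, adjusted p = 0.0631) and 0.62 in KO (SE 0.31, adjusted p = 0.156). With a replicate block in the limma fit, Wwtr1 was called in both genotypes (adjusted p = 0.00337 in WT and 0.0182 in KO). Under it 43.2% and 46% of all genes were called. The step was largest in replicate 1, at 2.7 and 1.98 times its D0 level against 1.15 to 1.67 times in the others. Without replicate 1 at D2 the change was 0.46 in WT (adjusted p = 0.152) and 0.31 in KO (adjusted p = 0.321). Yap1 was at 168, 97.5 and 105 CPM in WT D2 and at 182, 99.4 and 117 CPM in KO D2, with log2 fold changes of -0.07 and -0.03 (SE 0.28), or -0.32 and -0.28 without replicate 1 at D2.

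**Figure D3:**
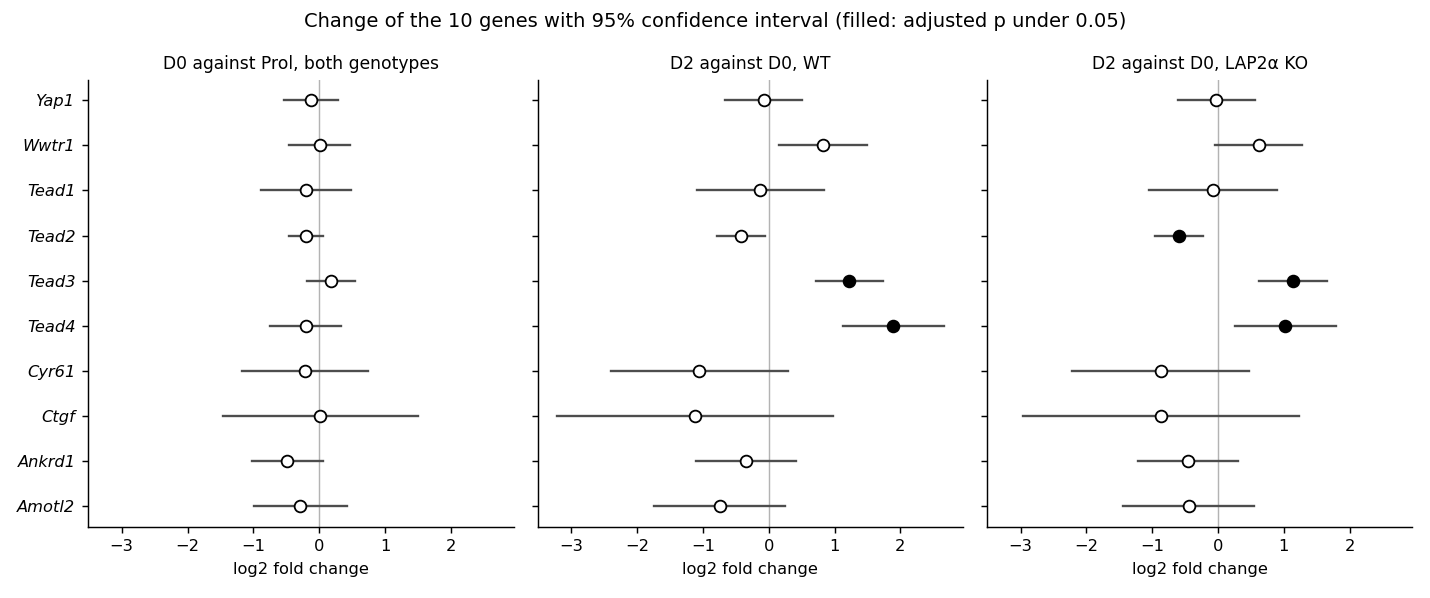
Fitted log2 fold change of the 10 genes (points) with its 95% confidence interval (lines) for D0 against Prol over both genotypes and for D2 against D0 in WT and in LAP2α KO cells. Filled points have an adjusted p under 0.05 and are Tead3 and Tead4 in both genotypes and Tead2 in KO. The intervals of Cyr61 and Ctgf are the widest in each panel.

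The 4 targets had negative fitted values from D0 to D2 in both genotypes, but 0 of 4 were called. In each, replicate 1 lay far above replicates 2 and 3 at D2. Cyr61 was at 612, 97.8 and 174 CPM in WT D2 and at 767, 108 and 237 CPM in KO D2. In replicates 2 and 3 it was at 0.27 to 0.376 times its D0 level, while replicate 1 was at 1.41 and 1.61 times its D0 level. Ctgf was at 179, 16.1 and 28.0 CPM in WT D2 and at 473, 18.7 and 35.6 CPM in KO D2. Its D2 over D0 ratios were 0.149 to 0.215 in replicates 2 and 3, and 3.05 in WT and 4.85 in KO in replicate 1. The log2 fold changes over all libraries were -1.05 and -0.87 (SE 0.63) for Cyr61 and -1.12 and -0.86 (SE 0.99) for Ctgf in WT and KO, with adjusted p-values of 0.25 to 0.559.

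In Ankrd1 and Amotl2 the gap between replicate 1 and the others was smaller. Ankrd1 was at 257, 111 and 109 CPM in WT D2 and at 220.3, 87.3 and 123 CPM in KO D2, which was 0.475 to 0.627 times the D0 level in replicates 2 and 3 and 1.62 and 1.1 times in replicate 1. Amotl2 was at 366, 100.4 and 124 CPM in WT D2 and at 416, 173 and 149 CPM in KO D2, and was lower than at D0 in 6 of 6 pairs by number. Its log2 fold change was -0.74 in WT and -0.45 in KO (SE 0.47), and that of Ankrd1 was -0.35 and -0.45 (SE 0.36).

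Without replicate 1 at D2 in both genotypes, a choice made after these values were seen, all 4 targets were called lower in WT and 3 of 4 in KO. Cyr61 then fell by 1.80 on the log2 scale in WT (SE 0.40, adjusted p = 0.00465) and by 1.62 in KO (SE 0.40, adjusted p = 0.00769). Ctgf fell by 2.14 in WT (SE 0.55, adjusted p = 0.0103), and its change was -2.26 in KO (SE 0.55, adjusted p = 0.00689). Ankrd1 fell by 0.76 (SE 0.26, adjusted p = 0.0437) and by 0.82 (SE 0.26, adjusted p = 0.0299). Amotl2 fell by 1.31 in WT (SE 0.34, adjusted p = 0.0109) and was at -0.91 in KO (SE 0.34, adjusted p = 0.0575). In all, 6 of 10 members were then called in WT and 5 of 10 in KO, where 28% and 30.4% of all genes were. These D2 groups held 2 libraries each, and the spread was estimated over all groups. Replicate 1 was kept at D0, so this fit was not balanced by replicate number. At D0, replicate 1 of Amotl2 was at 1.73 (WT) and 1.66 (KO) times the mean of its other libraries. That ratio was 0.446 and 0.671 for Ctgf, 0.9 and 0.926 for Cyr61, and 0.783 and 1.13 for Ankrd1. The part of this imbalance in the falls was not tested.

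**Figure D4:**
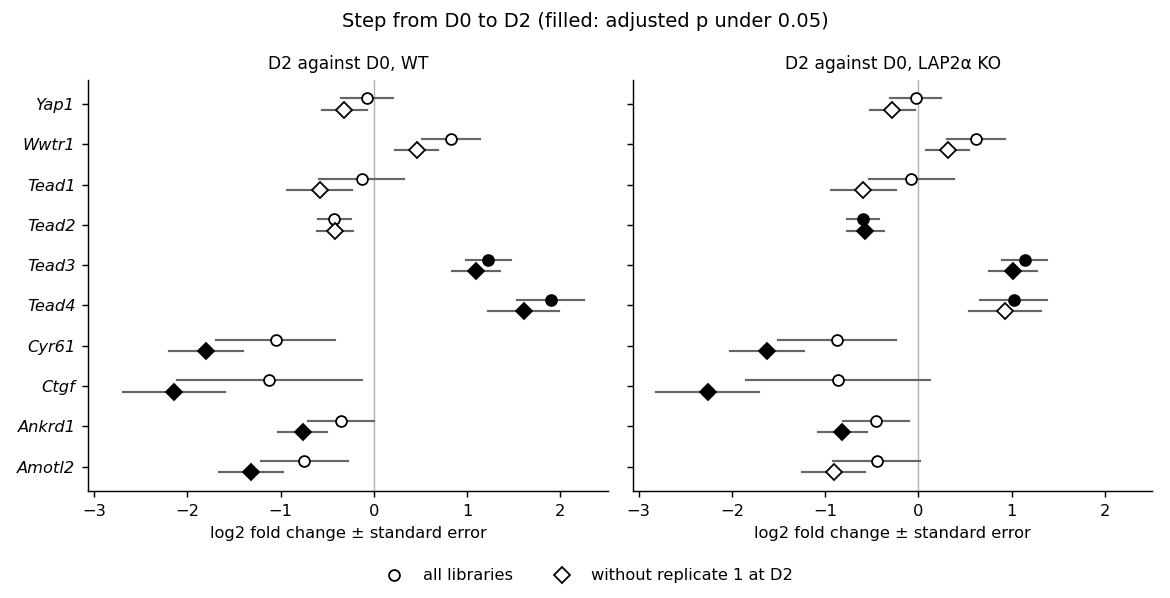
Log2 fold change from D0 to D2 (points) with its standard error (lines) for the 10 genes in WT and LAP2α KO cells, over all libraries (circles) and without replicate 1 at D2 (diamonds). Filled symbols have an adjusted p under 0.05. The 4 targets move to the left without that library, for Ctgf in WT from -1.12 to -2.14, and Tead3 moves from 1.23 to 1.09 in WT.

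Replicate 1 at D2 was the highest of its group in both genotypes for 9 of 10 members, as it was for 34.6% of all tested genes. The ratio of replicate 1 to the mean of the other libraries was 8.1 in WT and 17.4 in KO for Ctgf, 4.5 and 4.44 for Cyr61, 3.26 and 2.58 for Amotl2, and 2.34 and 2.1 for Ankrd1. Among the factors it was 2.52 and 2.9 for Tead1, 2.13 and 1.88 for Wwtr1 and 1.65 and 1.68 for Yap1, while Tead3 was at 1.31 and 1.29 and Tead4 at 1.83 and 1.2. The ratio was thus largest for the secreted targets, and it differed most between the genotypes for Ctgf and Tead4. At Prol and D0, replicate 1 was highest in both genotypes for 6 of 10 members (21.2% and 28.7% of all genes), and replicate 2 was lowest for 7 of 10 in each of these states (24.2% and 29.2%) and for 4 of 10 at D2 (19.6%). Col1a1 was also highest in replicate 1 at D2, at 12263 CPM in WT and 13453 CPM in KO against 1797 to 3754 CPM in the other D2 libraries. The summed level of the 6 fibroblast markers, most of it Col1a1, ranged from 1922 to 12470 CPM in WT D2 and from 3314 to 13760 CPM in KO D2. The summed muscle markers were also highest in replicate 1 of WT D2, at 3879 CPM against 2150 and 1988 CPM, but not in KO D2, where the 3 libraries were at 1433, 1488 and 1227 CPM. Across 10743 genes, the deviation of replicate 1 at D2 had a Spearman rho with transcript length of 0.369 in WT and 0.423 in KO, and that of replicate 2 of -0.489 and -0.421, as a description over genes, which are not independent. The part of the fibroblast and muscle markers and of transcript length in the result was not tested. In such bulk samples, fewer cells of a type and less RNA per cell cannot be told apart.

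**Figure D5:**
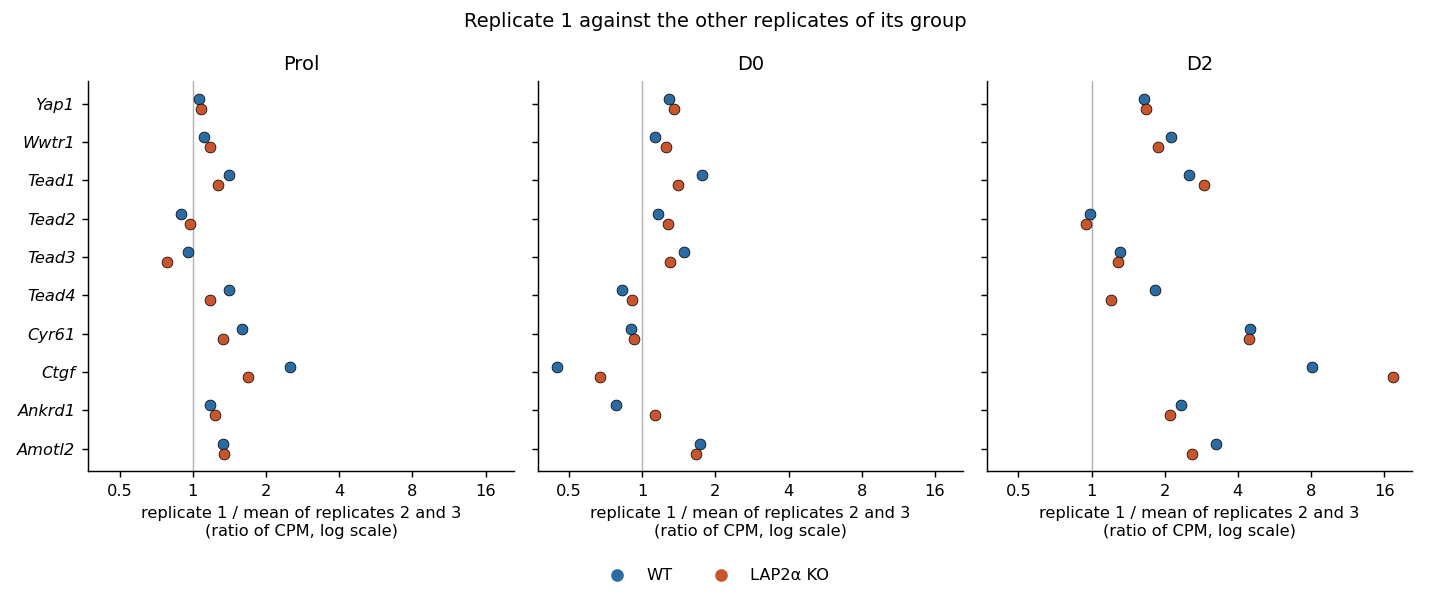
Ratio of replicate 1 to the mean of replicates 2 and 3 of its group, on a log scale, for the 10 genes in each state, with WT in blue and LAP2α KO in orange. At D2 the ratios reach 8.1 and 17.4 for Ctgf and are close to 1 for Tead2, and at D0 those of Ctgf are below 1.

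The wider pathway was looked at in 24 kinases, scaffolds and other regulators upstream of YAP. At confluence 0 of 24 were called over both genotypes (limma), with a median log2 fold change of -0.16 beside -0.03 over all genes, and 22 of 24 values were negative. From D0 to D2, Wwc1 (KIBRA), a scaffold that activates LATS, fell by 2.38 on the log2 scale in WT (SE 0.51, adjusted p = 0.00284) and by 2.36 in KO (SE 0.51, adjusted p = 0.00274). It was at 26.8 to 71.6 CPM in WT D0 and at 5.73 to 21.4 CPM in WT D2, and without replicate 1 at D2 its change was -2.96 in WT and -2.74 in KO (adjusted p = 0.0003 and 0.000459). Amotl1, an angiomotin that binds YAP, rose by 0.73 in WT (SE 0.26, adjusted p = 0.0489) and was at 0.71 in KO (SE 0.26, adjusted p = 0.0505). The angiomotin Amot was at 1.08 and 1.22 (adjusted p = 0.105 and 0.0643). Leaving out replicate 1 at D2, Amotl1 was at 0.60 in WT and 0.53 in KO (adjusted p = 0.114 and 0.156), and Amot at 0.78 and 0.85 (adjusted p = 0.245 and 0.196). The kinase genes Stk3, Stk4, Lats1 and Lats2 had no called change, with log2 fold changes of -0.34 to 0.34. In all, 1 of 24 was called higher and 1 lower in WT, and 0 higher and 1 lower in KO, where 26% and 28.3% of all genes were called. With the replicate block, 4 were higher and 2 lower in KO (46% of all genes), among them Amotl1 (adjusted p = 0.000163), Amot (adjusted p = 0.000321) and the kinase gene Taok3 at 1.118 (adjusted p = 0.000684). Without replicate 1 at D2 it was 1 higher and 4 lower in WT, and 0 and 3 in KO, where 28% and 30.4% of all genes were called. The adaptors Sav1 and Mob1a, which help LATS activation, were among those lower in both, at -0.49 and -0.67 in WT. Replicate 1 was the highest D2 library in both genotypes for 23 of these 24 genes, and for 34.6% of all tested genes.

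A further 18 genes of a widely used YAP/TAZ signature were looked at beside the 4 targets. At confluence 0 of 18 were called (limma), with values of -0.47 to 0.38. From D0 to D2, 5 of 18 were called higher and 0 lower in each genotype, with a median log2 fold change of 0.21 in WT and 0.27 in KO. The share called was near the 26% and 28.3% of all genes. With the replicate block, 7 were higher and 1 lower in KO, where 46% of all genes were called. Igfbp3, a binding protein of insulin-like growth factors, rose by 2.41 in WT (SE 0.40, adjusted p = 0.000326) and by 2.47 in KO (SE 0.40, adjusted p = 0.000258). Gadd45a, a stress-induced inhibitor of the cell cycle, rose by 2.01 and 1.89, the RNA-binding protein gene Rbms3 by 1.68 and 1.62, and Ccdc80, an extracellular matrix protein, by 1.99 and 2.46. In the fit without replicate 1 at D2, Igfbp3 was at 2.17 and 2.33, Gadd45a at 1.94 and 2.15 and Rbms3 at 1.31 and 1.32, all of them called. The remaining called gene, chosen after its values were seen, was Tgfb2 in WT at 1.03 (adjusted p = 0.0475) and Fjx1 in KO at 1.48 (adjusted p = 0.0461). Neither passed without replicate 1 at D2 (adjusted p = 0.111 and 0.0861), and Ccdc80 in WT was then at 1.297 (adjusted p = 0.0677). In that fit 3 of 18 were higher and 2 lower in WT and 4 higher and 1 lower in KO, where 28% and 30.4% of all genes were called. The medians were -0.19 and -0.03. Foxf2 was then among the genes lower in both genotypes, at -1.58 and -1.27. Replicate 1 was the highest D2 library in both genotypes for 15 of the 18, and for 34.6% of all tested genes. Lats2 and Ptpn14 belong to both lists.

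Vestigial-like proteins compete with YAP and TAZ for TEAD factors, and 3 of the 4 genes were listed (Vgll2, Vgll3 and Vgll4, not Vgll1). None was called by adjusted p in these comparisons (limma). Vgll2, a cofactor found in skeletal muscle, was lower at D0 than at Prol with a log2 fold change of -0.72 (SE 0.28, adjusted p = 0.999). All 6 proliferation markers fell from D0 to D2 in both genotypes, with and without replicate 1 at D2, from a summed 1554 to 2128 CPM at D0 to 290 to 513 CPM at D2, and 0 of 6 were called at confluence. Markers of endothelial and immune cells were at low levels, with Cdh5, Emcn, Ptprc, Adgre1 and Itgam not listed and summed levels of at most 2.46 CPM for the endothelial and 8.004 CPM for the immune markers. From D0 to D2, 1 of 3 endothelial markers listed rose in WT and 2 in KO, and 1 of 2 immune markers fell in each genotype. Of the fibroblast markers, 5 of 6 rose in WT and 4 of 6 in KO, and 4 of 6 in each without replicate 1 at D2. Of the smooth muscle markers, 2 of 4 rose from D0 to D2 in each genotype and Myh11 was not listed. Beside these counts, 26% of all tested genes were called from D0 to D2 in WT and 28.3% in KO. Without replicate 1 at D2 these shares were 28% and 30.4%.

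Loss of LAP2α was not accompanied by a called difference of any member in any state. In KO against WT, 0 of 10 members had an adjusted p under 0.05 at Prol, D0 or D2 (limma), where 0.00566%, 0% and 0% of all genes did. At Prol the log2 fold changes ran from -0.13 for Tead4 to 0.41 for Ctgf, at D0 from -0.03 for Ankrd1 to 0.40 for Ctgf, and at D2 from -0.82 for Tead4 to 0.65 for Ctgf. The member with an unadjusted p under 0.05 was Tead4 at D2 and it alone, where 1.96% of all genes passed. Its 3 KO libraries, at 24.6 to 33.5 CPM, lay below its 3 WT libraries, at 41.5 to 77.7 CPM, and 6.17% of all genes were separated in this comparison in either direction. The log2 fold change was -0.82 (SE 0.36, 95% interval -1.58 to -0.05, adjusted p = 1). It passed an unadjusted p under 0.05 with a change over 1.5-fold and 10 CPM in a library, as did 0.464% of all genes, but not the log2 change over 1.5 that the methods of the study ask for, which 0.0736% of all genes passed. Tead2 was also lower in all KO libraries than in all WT libraries at D2, by a small amount, with a log2 fold change of -0.13 (SE 0.17). Without replicate 1 at D2 the difference of Tead4 was -0.62 (SE 0.42, adjusted p = 1). The difference between the genotypes in the step of Tead4 from D0 to D2 was -0.87 (SE 0.51, adjusted p = 1, where 0% of all genes were called), and that in the step of any member from Prol to D0 was -0.07 to 0.19. The summed muscle markers at D2 were also lower in all 3 KO libraries than in all 3 WT libraries, and their part in the result for Tead4 was not tested.

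Over the 18 libraries, the members that went together most closely were Yap1 with Tead1 (Pearson r of log2 CPM 0.954) and Cyr61 with Ctgf (0.936), while Tead2 and Tead3 were the most opposed (-0.824). These values are a description over libraries that share stages, depth and the replicate pattern described. Cyr61 was also close to Ankrd1 (0.907) and Amotl2 (0.875). Wwtr1 was nearer to Tead4 (0.846) than to Yap1 (0.494). Among 10748 other genes, Ptgs2, the inducible cyclooxygenase, was the nearest to both Cyr61 (0.972) and Ctgf (0.959), followed for Ctgf by Ereg (0.944) and Nr4a2 (0.937). Genes near to Yap1 included Pik3ca (0.987) and Ankib1 (0.987), and those near to Tead1 were Luzp1 (0.989), Cdc42bpa (0.988) and Sgms2 (0.982). Tead3 was nearest to Podxl2 (0.979), to Neb, which encodes the thin filament protein nebulin (0.976), and to Hrc (0.975), and Tead4 to Sh3glb1 (0.968), Nes (0.960) and Orai1 (0.951). For Wwtr1 the nearest was Dcun1d3 (0.969), for Tead2 Mkrn2 (0.976), for Ankrd1 Exoc5 (0.948) and for Amotl2 Stk24 (0.973).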

How the data were processed

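PolyA RNA of the 18 libraries was sequenced as directional, single 50-base reads. After trimming with cutadapt and alignment to the GRCm38 transcriptome with NextGenMap, the authors used RSEM for estimated counts and tximport to bring them to genes, dropped low genes and applied TMM (edgeR). The deposited values, entered as another unit because of their decimal commas, are CPM, the expected count plus 0.5 over the scaled library total, on the CPM scale. Expected counts were recovered from them and are not whole reads (34.9% to 47.2% of those under 20 were whole to within 0.001), so no count test was used.

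The log2 of the deposited CPM was fitted with limma 3.58.1 in R 4.3.3 (lmFit, eBayes with a variance trend) for a single factor of 6 groups, with all 18 libraries. Kept were 17672 genes that exceeded 5 expected counts in each of the 3 libraries of 1 or more groups. A call is a Benjamini-Hochberg adjusted p under 0.05 over these genes. A second rule was an unadjusted p under 0.05, a change over 1.5-fold and a library reaching 10 CPM. It was planned as the rule of the study, whose methods however state an absolute log2 change over 1.5, and that rule was added after the data had been seen. All 10 members are named, and for each list up to 4 genes per comparison with the smallest p among those called by adjusted p or the second rule, beside genes named for their role; the markers are given as ranges and counts. The members and lists were chosen with earlier results of these data known. The study's block, the sequencing lane, is not given in the labels. Replicate numbers deviated together (correlation across genes over 0.1 in 40 of 45 pairs of libraries, -0.0358 to 0.645), in all pairs of the comparisons made here except WT D2/D0, where it was 0.01 in replicate 3. Positions and lengths are from GENCODE M21, and upstream sequences from RefSeq (GRCm38.p6). Figures were drawn with matplotlib 3.10.9. In a simulation of WT D0 against Prol, the fit recovered 5 of 100 changes of 2-fold and 78 of 100 of 4-fold. Both sizes were simulated together, with 3 false calls in all among the unchanged genes of the 17672. Most 2-fold changes would thus go uncalled in that comparison, so the absence of a call there does not show equal levels. Recovery in the other comparisons was not simulated. Alternatives were the replicate block, voom weights without and with a random replicate block, median-of-ratios scaling, library totals alone, a pseudocount of 1 CPM, no filter on low counts, only the groups compared, the second call rule and each library left out. Leaving out D2 replicate 1 of both genotypes was added after the data had been seen.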

Additional observations from a re-analysis of the deposited data

How the results depend on the processing

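The counts of members called from Prol to D0, and between the genotypes by adjusted p, were 0 under every alternative. By an unadjusted p, a change over 1.5-fold and 10 CPM, 1 member (Tead4) was called in KO/WT D2. With the log2 change over 1.5 that the study states, a rule added after the data had been seen, 0 members were called in KO/WT D2, 1 in WT D2/D0 (Tead4, where 6.72% of all genes were called) and 0 in KO D2/D0 (7.14%). In WT D2/D0, 2 members were called, and 5 with the replicate block (adding Wwtr1, Tead2 and Amotl2), where 43.2% of all genes were called, 4 with voom and a random replicate block, 6 without replicate 1 of both genotypes at D2, and between 2 and 4 with 1 library left out. The same-numbered WT libraries of D0 and D2 did not deviate together in replicate 3. Of the 24 regulators, 5 were called higher and 3 lower in WT with the block. In KO D2/D0, 3 members were called, 4 with the replicate block, 1 with only the groups compared, 5 without replicate 1 of both genotypes at D2, and between 1 and 3 with 1 library left out. Scaling by library totals alone moved the median of all genes to 0.13 in WT D2/D0 and 0.17 in KO D2/D0, and under it Yap1 was at 0.054 and 0.081 and Tead1 in KO at 0.032, in place of negative values; the cause of these changes was not tested. With 1 library left out, signs turned for values near 0. For D0/Prol over both genotypes, Wwtr1 ranged from -0.057 to 0.123 and Ctgf from -0.24 to 0.24. For WT D2/D0, Yap1 ranged from -0.317 to 0.074 and Tead1 from -0.58 to 0.19. For KO D2/D0, Yap1 ranged from -0.28 to 0.15, Tead1 from -0.59 to 0.25 and Ctgf from -2.261 to 0.069. For KO/WT D2, Ctgf ranged from -0.75 to 1.68, Cyr61 from -0.45 to 1.05 and Amotl2 from -0.046 to 0.984. Depth was not the limit for the members, since each had at least 228.5 expected counts in every library, and the precision was set by the 3 libraries of a group.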
